A study of Mus musculus with 36 samples.

Results

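The genes described here encode guanylate-binding proteins, and 4 of them, Gbp2, Gbp3, Gbp6 and Gbp7, were measured by 7 probe sets annotated to exactly 1 of these symbols, out of 45101 probe sets, covering 18194 genes with a single symbol, on the Affymetrix Mouse 430_2 array. Gbp2, Gbp6 and Gbp7 had 2 probe sets each and Gbp3 had 1, and all 7 were read in all 36 arrays. Male C57B1/6J mice had been trained in a place preference box. In the conditioning phase, days 3 to 10, they were injected on alternate days with saline and with their treatment, which was modafinil at 65 mg/kg in the modafinil groups and saline again in the vehicle groups. Modafinil is a wake-promoting drug that blocks dopamine reuptake. Brains were taken on day 11, right after the preference test and 24 h after the last injection, and 3 regions were punched out with a diameter of 1 mm from slices of 100 µm. The groups were 5 vehicle and 5 modafinil arrays of the ventral tegmental area (VTA), 5 and 5 of the nucleus accumbens (NAC) and 8 and 8 of the prefrontal cortex (PFC). Every vehicle animal had therefore been injected, confined and tested in the same way as the modafinil animals. The labels do not say whether the arrays of a group came from different mice, nor whether equal numbers in different regions mark the same mouse, so p-values measure the spread between these samples only, which may be technical in part.

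Guanylate-binding proteins are large GTPases of the dynamin superfamily that cells make in quantity after exposure to interferons, above all interferon gamma. They assemble on the membranes of vacuoles that hold bacteria or parasites, or on the microbes themselves, and help to break them open and to alert inflammasomes. In mice the genes lie in 2 clusters, and they are induced in brain when interferon reaches microglia, endothelial cells and astrocytes. In bulk tissue such as these punches, fewer cells of a type and less RNA per cell cannot be told apart.

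On the RefSeq annotation of GRCm38.p6, Gbp7 (chromosome 3, 142530336 to 142550151), Gbp3 (142560016 to 142573213) and Gbp2 (142620663 to 142638008) lie in the cluster on chromosome 3, and Gbp6 lies in the cluster on chromosome 5 (105270702 to 105295871). Because these members moved together in the arrays, the RefSeq promoters of the 3 of 4 members that matched are shown. Each runs from 250 bases before the annotated start to 50 bases after it, 5′ to 3′ on the plus strand of GRCm38.p6. The windows are chr3:142620413-142620712 for Gbp2, chr3:142559794-142560093 for Gbp3 and chr3:142530086-142530385 for Gbp7. Capitals mark 2 motifs that were searched on both strands: GAAA followed by any 2 bases and a further GAAA, the core of an interferon-stimulated response element (bound by the ISGF3 complex and IRF proteins), and TTCNNNGAA, the core of a gamma-activated site.
Gbp2: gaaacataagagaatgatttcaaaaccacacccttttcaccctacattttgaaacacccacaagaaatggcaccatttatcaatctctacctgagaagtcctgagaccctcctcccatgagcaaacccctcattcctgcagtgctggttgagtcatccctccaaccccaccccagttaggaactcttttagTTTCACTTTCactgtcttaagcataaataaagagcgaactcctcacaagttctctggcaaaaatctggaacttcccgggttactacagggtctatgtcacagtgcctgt
Gbp3: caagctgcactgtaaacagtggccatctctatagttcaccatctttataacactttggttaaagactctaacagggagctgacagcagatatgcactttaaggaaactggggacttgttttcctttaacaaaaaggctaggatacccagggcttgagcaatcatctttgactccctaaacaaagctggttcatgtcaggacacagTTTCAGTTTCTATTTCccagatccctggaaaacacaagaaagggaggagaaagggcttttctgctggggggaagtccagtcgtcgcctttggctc
Gbp7: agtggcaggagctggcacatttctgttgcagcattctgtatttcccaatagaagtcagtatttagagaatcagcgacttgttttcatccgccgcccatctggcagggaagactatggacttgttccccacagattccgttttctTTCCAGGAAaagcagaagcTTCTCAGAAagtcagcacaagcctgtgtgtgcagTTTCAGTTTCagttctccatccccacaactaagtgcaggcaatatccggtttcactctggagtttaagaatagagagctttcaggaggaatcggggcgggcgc

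Gbp2 held the response element letters once, on the minus strand from base -59 to base -50 relative to the start. The Gbp3 window held them in 2 overlapping copies, from -45 to -36 and from -39 to -30, also on the minus strand. Gbp7 held 1 response element match from -53 to -44 and 2 gamma-activated site matches, from -106 to -98 and from -87 to -79. Of 32851 RefSeq promoter windows of the same 300 bases, 3.44% held the response element letters, 8.3% held the gamma-activated site letters and 0.454% held both. Gbp3 has a further RefSeq window, chr3:142560106-142560405, that held neither. Gbp6 is named only. These matches describe letters in a window and not binding.

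The labelled regions showed their marker genes, with some arrays that stood apart. Mean log2 levels of dopamine neuron markers were 8.49 to 10.17 in vehicle VTA arrays and 6.44 to 6.64 in vehicle NAC arrays, those of striatal projection neuron markers 10.76 to 11.84 in vehicle NAC and 7.96 to 8.30 in vehicle VTA arrays, and those of cortical excitatory neuron markers 9.76 to 10.21 in vehicle PFC arrays. Modafinil PFC array 3 had a striatal marker level of 10.77, where the vehicle PFC arrays were at 8.65 to 8.95, and results in PFC are given with and without it. In NAC the cortical markers varied from 7.61 to 9.58 over the vehicle arrays and from 7.24 to 9.38 over the modafinil arrays.

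Gbp2, which carries a lipid anchor that targets it to membranes, was low in every vehicle array and high in most modafinil arrays. In VTA its probe set 1418240_at read log2 values of 5.99, 6.36, 6.20, 5.96 and 6.06 in vehicle arrays 1 to 5 and 9.29, 9.28, 5.92, 9.02 and 9.29 in modafinil arrays 1 to 5. Thus 4 of 5 modafinil arrays lay above every vehicle array, and array 3 lay below every one of them. In NAC the vehicle values were 5.79, 6.10, 6.16, 5.91 and 5.81, and the modafinil values were 9.41, 8.86, 6.72, 5.97 and 8.99. Arrays 1, 2 and 5 were high there, array 3 was slightly above the vehicle range and array 4 was inside it. In PFC the vehicle arrays had a lowest value of 5.90, a median of 6.40 and a highest value of 6.83, and the modafinil arrays ran from 6.26 through a median of 9.33 to 10.16. Modafinil PFC array 6 was at 6.26, inside the vehicle range, and array 3, at 7.31, was the next lowest. The other Gbp2 probe set, 1435906_x_at, separated the same arrays: the modafinil arrays higher than every vehicle array numbered 4 of 5 for VTA, 4 of 5 for NAC and 7 of 8 for PFC. An _x_ suffix on this array type marks probes that may also bind related transcripts, so its signal could be shared with near copies of Gbp2.

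Gbp3 was well expressed in all groups, and its shift was smaller in log2 units. Its probe set 1418392_a_at read 7.98, 8.20, 8.14, 7.72 and 7.86 in the vehicle VTA arrays and 9.69, 9.26, 7.76, 9.67 and 9.59 in the modafinil VTA arrays. In NAC it read 7.69, 7.45, 7.75, 7.51 and 7.40 in vehicle arrays and 9.52, 9.01, 8.13, 7.77 and 9.08 in modafinil arrays, the single case among the 7 probe sets and 3 regions in which every modafinil array lay above every vehicle array. Of all 27022 probe sets tested, 0.17% did so in NAC, 1.81% in VTA and 0.0185% in PFC. In PFC the vehicle arrays ran from 8.12 through a median of 8.25 to 8.65 and the modafinil arrays from 8.27 through 9.58 to 10.15.

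Gbp6, of the chromosome 5 cluster, showed the same 2 levels. Its brighter probe set 1447927_at read 7.16, 6.78, 6.81, 6.15 and 6.44 in vehicle VTA arrays and 8.93, 8.50, 6.41, 9.22 and 9.07 in modafinil VTA arrays. In NAC it read 6.08, 6.03, 6.46, 6.04 and 6.03 with vehicle and 8.59, 8.57, 6.23, 5.82 and 8.32 with modafinil, so arrays 3 and 4 stayed among or below the vehicle values. In PFC it ran from 6.44 through a median of 6.79 to 7.34 with vehicle and from 6.53 through 8.97 to 9.37 with modafinil, and 6 of 8 modafinil arrays exceeded every vehicle value. The other probe set, 1438676_at, was dim in vehicle NAC arrays, at 4.29 to 4.31, and reached 7.54 in modafinil NAC array 1.

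Gbp7, a member linked to the assembly of the phagocyte oxidase on vacuoles, had the smallest log2 shift of the 4 genes by its brighter probe set; differences in shift between genes were not tested. That probe set, 1434380_at, read 7.91, 8.38, 8.14, 7.88 and 7.86 in vehicle VTA arrays and 9.25, 9.52, 7.67, 9.21 and 9.29 in modafinil VTA arrays. In NAC the values were 7.66, 7.79, 7.69, 7.54 and 7.60 with vehicle and 9.19, 8.88, 8.16, 7.70 and 9.55 with modafinil. In PFC they ran from 8.09 through 8.19 to 8.56 with vehicle and from 8.18 through 9.39 to 9.80 with modafinil. As for Gbp2 1418240_at, array 3 of VTA lay below every vehicle array, and array 4 of NAC and array 6 of PFC lay within the vehicle range. Its other probe set, 1425156_at, put 4 of 5, 4 of 5 and 7 of 8 modafinil arrays above the vehicle range.

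**Figure D1:**
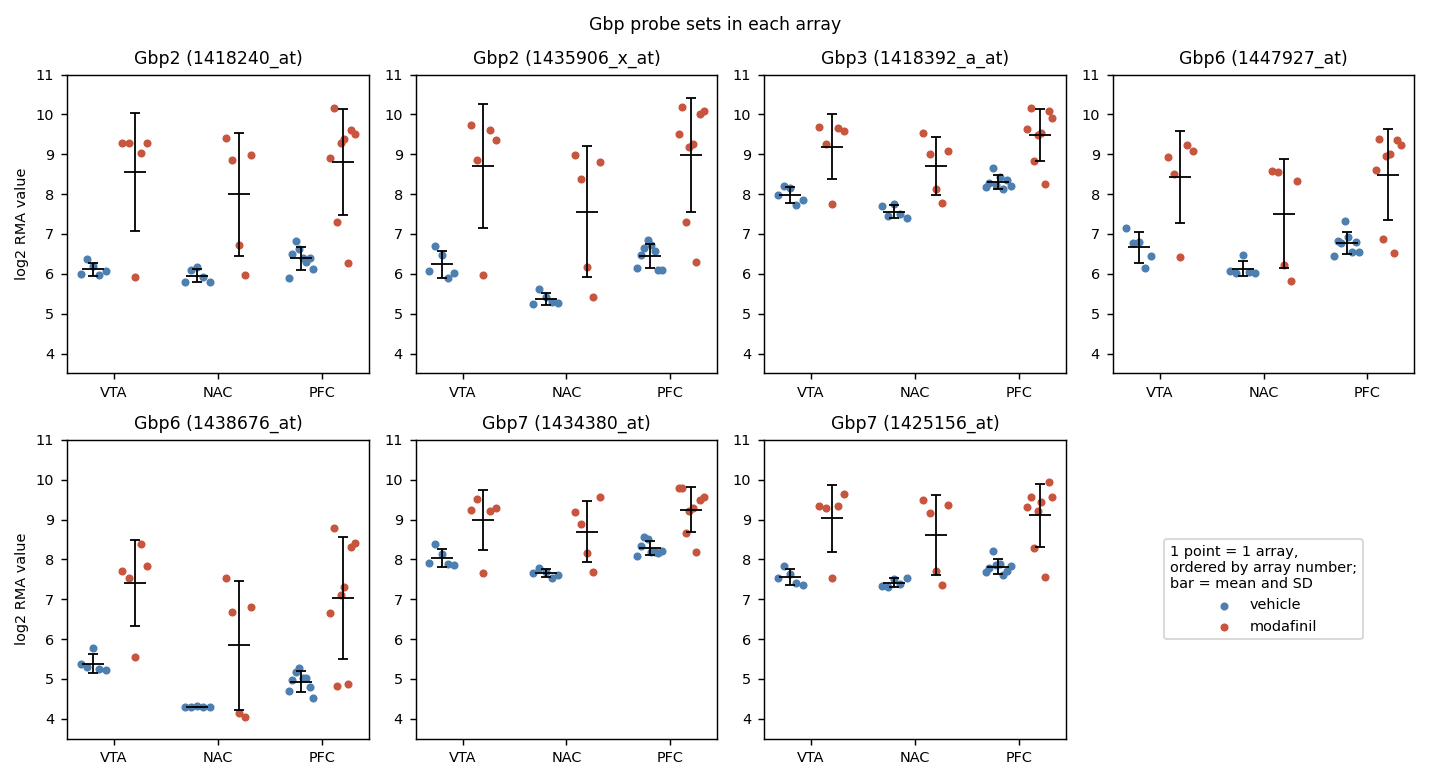
Log2 RMA value (vertical axis) of each of the 7 Gbp probe sets in each of the 36 arrays, by region and treatment; points are arrays in the order of their number and black bars are the group mean and SD. Most modafinil arrays sit well above the vehicle arrays, for Gbp2 1418240_at at 8.86 to 10.16, while VTA array 3, NAC array 4 and PFC array 6 sit among or near the vehicle arrays.

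Modafinil VTA array 3, NAC array 4 and PFC array 6 stayed low for all 4 genes. Modafinil VTA array 3 was the lowest modafinil VTA array in 7 of 7 probe sets and lay above the highest vehicle array in 0 of 7, with a median difference of -0.22 from the vehicle mean. Modafinil NAC array 4 was the lowest in 7 of 7 and above the vehicle range in 1 of 7, with a median difference of 0.01. Modafinil PFC array 6 was the lowest in 6 of 7 and above the vehicle range in 0 of 7, with a median difference of -0.13. Modafinil NAC array 3 and PFC array 3 lay between: each was above the highest vehicle array in 5 of 7 probe sets, with median differences of 0.50 and 0.46. In both arrays the exceptions were the Gbp6 probe sets, which stayed within or below the vehicle range, so these arrays were low for Gbp6 only. The remaining modafinil arrays were above the highest vehicle array in 7 of 7 probe sets, and their median differences ran from 1.72 to 2.59. NAC arrays 3 and 4 had cortical marker levels of 9.36 and 9.38, next to 9.20 in array 5, which was high for the Gbp genes; the part of the punched tissue in these values was not tested. Number 3 was low in VTA and intermediate in NAC and PFC, whereas number 4 was high in VTA (2.56) and PFC (2.17) and low in NAC.

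**Figure D2:**
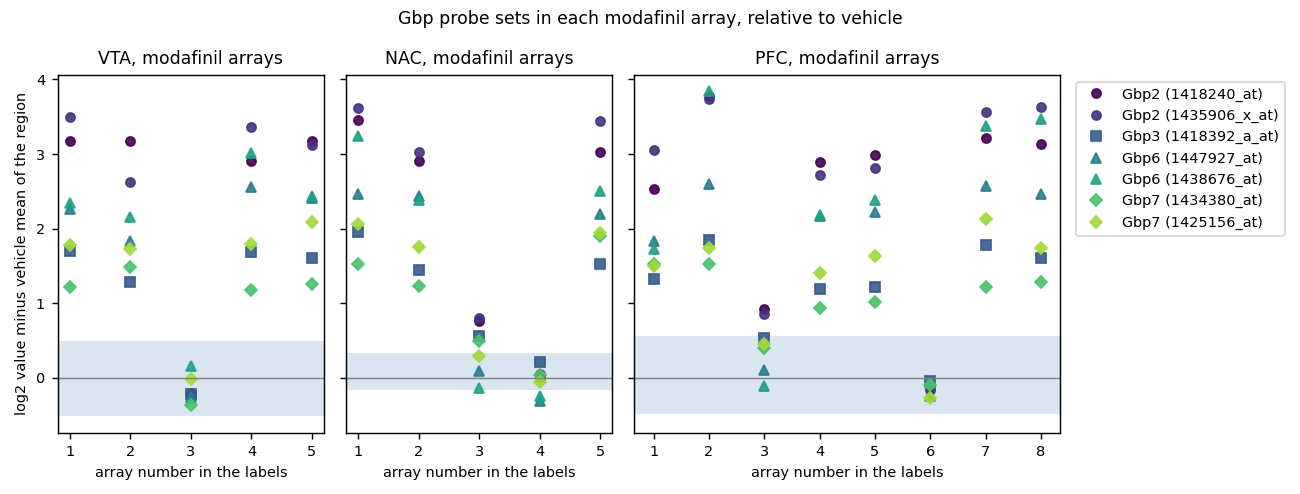
Difference of each Gbp probe set from the vehicle mean of its region (log2, vertical axis) in each modafinil array (horizontal axis, number as in the labels); the shaded band spans the vehicle arrays of all 7 probe sets. The probe sets of an array move as a group: VTA array 3, NAC array 4 and PFC array 6 lie in or near the band, with median differences of -0.22, 0.01 and -0.13.

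The treatment was compared with vehicle within each region by limma's moderated test, adjusted by the Benjamini and Hochberg method over all 27022 probe sets tested. In PFC, Gbp2 and Gbp3 rose with modafinil. Gbp2 rose by 2.42 (SE 0.415, limma adjusted p = 0.0345), a 5.34-fold change, by 1418240_at and by 2.53 (SE 0.445, adjusted p = 0.0396) by 1435906_x_at, and these were the 2 largest upward changes of the 27022 in PFC. Both Gbp2 probe sets passed the level filter in PFC only through their modafinil arrays, on which these ranks rest. Gbp3 rose by 1.18 (SE 0.206, adjusted p = 0.0371), a 2.27-fold change. That makes 3 of 7 member probe sets called higher; 12 of the 27022 (0.0444%) were called higher, and 0.0518% were called in either direction. Gbp6 1447927_at differed by 1.71 (SE 0.359, adjusted p = 0.0911), and the Gbp7 probe sets differed by 0.97 (SE 0.184, adjusted p = 0.0589) and 1.29 (SE 0.251, adjusted p = 0.0604), which missed the threshold of 0.05. Gbp6 1438676_at was below the level filter in PFC and was not tested. All 3 calls were lost with trended and robust estimation (adjusted p = 0.118), and with the 60th percentile filter both Gbp2 probe sets went untested and Gbp3 had an adjusted p of 0.0574. The calls also depended on single arrays: when each of the 16 arrays was left out in turn, member calls were left in 2 fits only, 6 without modafinil array 3 and 6 without modafinil array 6, and 0 in the others. Over all probe sets these fits called 0 to 62 of 27022, the most without modafinil array 6. Modafinil PFC arrays 3 and 6 had the lowest member values, so leaving out either raised the differences in advance. Without array 3, the one with striatal markers, Gbp2 1418240_at differed by 2.63 (SE 0.393, adjusted p = 0.00738), Gbp3 by 1.28 (SE 0.201, adjusted p = 0.00871), Gbp6 1447927_at by 1.95 (SE 0.315, adjusted p = 0.00968) and Gbp7 1434380_at by 1.06 (SE 0.179, adjusted p = 0.0149).

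In VTA the same genes differed by similar amounts without passing the threshold. Gbp2 differed by 2.44 (SE 0.539, limma adjusted p = 0.0566) and 2.47 (SE 0.578, adjusted p = 0.0669), Gbp3 by 1.21 (SE 0.307, adjusted p = 0.0767) and Gbp6 by 1.76 (SE 0.442, adjusted p = 0.0757) and 2.02 (SE 0.403, adjusted p = 0.0523). Gbp7 differed by 0.95 (SE 0.285, adjusted p = 0.108) and 1.47 (SE 0.317, adjusted p = 0.0558). Thus 0 of 7 member probe sets were called, where limma called 70 of 27022 (0.259%; 0.189% higher) and where 5695 of 27022 had an unadjusted p under 0.05; the unadjusted p of the members ran from 0.000277 to 0.0057. Only 2 probe sets had larger upward changes than 1418240_at, 1 of them the other Gbp2 probe set. The vehicle mean of 1418240_at was below the level cutoff in VTA, so its rank rests on the modafinil arrays. Of the 10 fits that left out 1 array, the fit without modafinil VTA array 3 called 7 of 7 member probe sets (Gbp2 1418240_at at 3.11, SE 0.096, adjusted p = 6.93e-08), and the others called 0. Over all probe sets, the fit without modafinil VTA array 3 called 172 of 27022. Array 3 was the lowest modafinil VTA array in 7 of 7 member probe sets. Leaving it out therefore raised their differences and narrowed their spread in advance, so these calls are no independent support. In one fit of all 36 arrays, which pools the spread of the 6 groups, 5 of the 6 tested were called in VTA, where 940 of 27022 were called.

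Markers of midbrain dopamine neurons were also lower in these modafinil VTA arrays. The mean log2 level of the 11 markers on the array was 8.49 to 10.17 over the vehicle VTA arrays and 7.57 to 9.01 over the modafinil VTA arrays, and 10 of 10 tested markers had lower values, with 0 called (limma smallest adjusted p = 0.0875; Th differed by -1.50, adjusted p = 0.131). The median difference of the tested markers was -1.06 in VTA, against -0.05 over all 27022 probe sets. Modafinil array 3, the low array for the Gbp genes, had a marker level of 8.18, between the other modafinil arrays. The part of the sampled tissue in the Gbp values was not tested. In NAC and PFC, where the Gbp values were also high, the level of the same list was 6.44 to 6.64 and 6.39 to 6.97 in vehicle arrays and 6.32 to 6.69 and 6.38 to 6.86 in modafinil arrays.

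In NAC the values ran the same way and none was called. Gbp2 differed by 2.04 (SE 0.563) and 2.19 (SE 0.600), Gbp3 by 1.14 (SE 0.274), Gbp6 1447927_at by 1.38 (SE 0.502) and Gbp7 by 1.04 (SE 0.282) and 1.20 (SE 0.368), and limma's adjusted p was 0.9998 for each. Their unadjusted p ran from 0.00126 for Gbp3 to 0.0176 for Gbp6, while 874 of 27022 probe sets had an unadjusted p under 0.05 and limma called 0 (0%). Gbp2 1435906_x_at had the largest upward change of all 27022 in NAC, and 1418240_at the 4th largest. Both passed the level filter in NAC only through their modafinil arrays, so these ranks are no support for a change. Gbp6 1438676_at was not tested. No array, left out in turn, brought a member call in NAC.

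**Figure D3:**
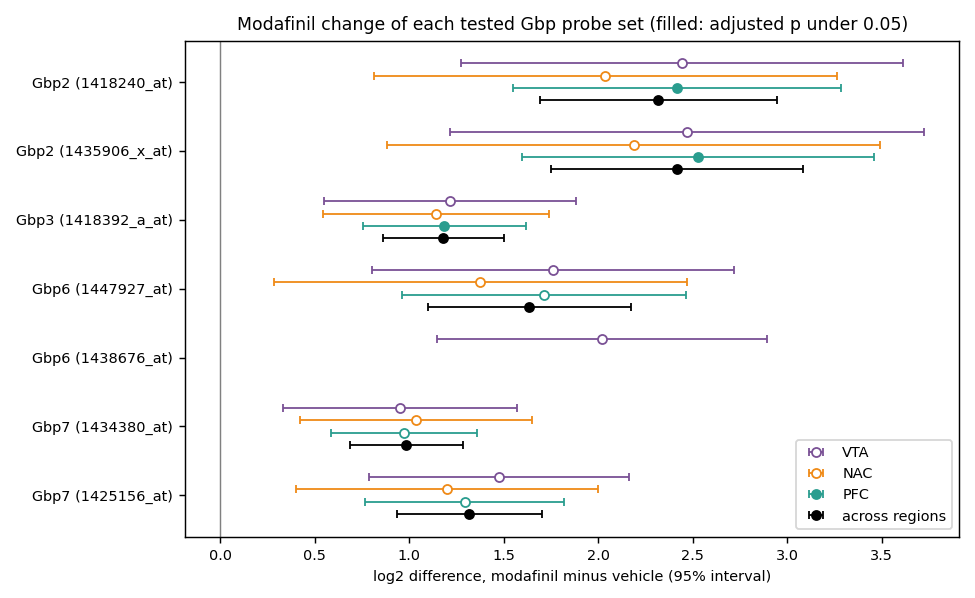
Log2 difference between modafinil and vehicle (horizontal axis) with its 95% interval for each Gbp probe set tested, by region and across the regions; filled points passed an adjusted p of 0.05 and probe set 1438676_at was tested in VTA only. The estimates of the 3 regions lie close together beside their intervals, at 2.04 to 2.53 for Gbp2 and 0.95 to 1.47 for Gbp7.

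Across the 3 regions together, with region as a factor, 6 of 6 tested member probe sets rose, where 120 of 27022 (0.444%) were called higher and 0.84% were called in either direction. Gbp2 rose by 2.32 (SE 0.309, limma adjusted p = 4.2e-05) and 2.42 (SE 0.330, adjusted p = 4.34e-05), the 2 largest upward changes of the 27022. Gbp3 rose by 1.18 (SE 0.157, adjusted p = 4.2e-05), Gbp6 1447927_at by 1.63 (SE 0.265, adjusted p = 0.00037), and Gbp7 by 0.99 (SE 0.149, adjusted p = 0.000129) and 1.32 (SE 0.189, adjusted p = 5.86e-05). These correspond to 4.99-fold, 5.34-fold, 2.27-fold, 3.10-fold, 1.98-fold and 2.49-fold. For Gbp2, the vehicle means of both probe sets lay below the level cutoffs of NAC and PFC. That of 1418240_at was below the VTA cutoff too, so the Gbp2 ranks and folds start from low vehicle values. Gbp6 1438676_at was below the filter and was left out of this test; with no filter its limma adjusted p was 0.000549 over 45037 probe sets, against vehicle values not shown to be above background, so no size of change is given. The 6 calls were kept without each of the 36 arrays in turn. If arrays with the same number come from the same mouse, the 36 arrays are not independent, and with treatment and number as a random block the 6 calls remained.

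Several of these probe sets passed the level filter only through their modafinil arrays. The cutoffs were 6.16 in VTA, 6.23 in NAC and 6.62 in PFC, and the vehicle mean was below the cutoff for Gbp2 1418240_at in all 3 regions, for Gbp2 1435906_x_at in NAC and PFC and for Gbp6 1447927_at in NAC. Gbp6 1438676_at passed in VTA alone, with a vehicle mean of 5.38. The ranks and sizes of change given for these probe sets in these regions therefore rest on the modafinil arrays that brought them past the filter. The vehicle means of Gbp3 and of both Gbp7 probe sets were above the cutoffs in every region. With no filter the members called in VTA, NAC and PFC were 0, 0 and 3 of 7, and limma's adjusted p for Gbp2 1418240_at in PFC was 0.0385.

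The modafinil change was not shown to differ between regions for any member. NAC minus VTA, the change in Gbp2 1418240_at differed by -0.41 (95% interval -2.13 to 1.31, limma adjusted p = 0.896), that in Gbp3 by -0.07 (-0.95 to 0.81), that in Gbp6 1447927_at by -0.39 (-1.86 to 1.09) and that in Gbp7 1434380_at by 0.09 (-0.74 to 0.92). PFC minus VTA, the corresponding differences were -0.03 (-1.58 to 1.52), -0.03 (-0.82 to 0.76), -0.05 (-1.38 to 1.28) and 0.02 (-0.73 to 0.77). PFC minus NAC, they were 0.38 (-1.17 to 1.93), 0.04 (-0.75 to 0.84), 0.34 (-0.99 to 1.67) and -0.06 (-0.81 to 0.68). In each contrast 0 of 6 tested member probe sets were called, where 0.274%, 0.903% and 0% of the 27022 were called. PFC RNA was handled apart from that of VTA and NAC, so contrasts with PFC also hold this difference.

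In vehicle arrays 4 of 7 member probe sets could be compared between NAC and VTA, and 3 were called lower in NAC. Gbp3 was lower by a log2 difference of -0.42 (SE 0.102, limma adjusted p = 0.00424), Gbp6 1447927_at by -0.54 (SE 0.163, adjusted p = 0.0143) and Gbp7 1434380_at by -0.38 (SE 0.1003, adjusted p = 0.00694), while Gbp7 1425156_at differed by -0.14 (SE 0.095, adjusted p = 0.238). These regions differ widely, and 27.8% of the 27022 probe sets were called lower in NAC and 56.5% in either direction, which is the background for the members' count. Both Gbp2 probe sets and Gbp6 1438676_at were below the filter in this comparison. The mean levels of Gbp3 in vehicle arrays were 7.98 ± 0.20 (SD, n = 5) in VTA, 7.56 ± 0.15 (SD, n = 5) in NAC and 8.30 ± 0.17 (SD, n = 8) in PFC. PFC levels stand on another scale, since the median of all probe sets was 7.24 in PFC arrays against 6.79 in VTA and 6.86 in NAC arrays, and are given side by side only.

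The spread between arrays was larger with modafinil in these values. For Gbp2 1418240_at the SD was 0.17 among vehicle and 1.48 among modafinil VTA arrays. It was 0.17 against 1.54 in NAC. The PFC groups had SDs of 0.29 and 1.32. The absolute deviations from the group mean were compared by the same limma test, and 0 of the members were called in VTA, NAC or PFC, where 0% of 27022 were called in each and 2033, 3091 and 2108 had an unadjusted p under 0.05. In NAC, Gbp6 1447927_at, Gbp7 1425156_at and Gbp2 1435906_x_at had the 3 smallest p-values of the 27022, with an adjusted p of 0.0948 each. The Gbp6 and Gbp2 probe sets passed the NAC filter only through their modafinil arrays, so their ranks are no support for a larger spread. The vehicle mean of Gbp7 1425156_at was above the cutoff. Without modafinil NAC array 1, 2 or 5, the members called were 3, 5 and 5. Over all probe sets, the fits without single NAC arrays called 0 to 635 of 27022, the most without modafinil array 5. Simulated data were made for the PFC spread test alone, which found few of the spread differences put in. The VTA and NAC tests have fewer arrays and were not simulated. A count of 0 therefore carries little weight in any region.

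The members tracked each other closely among modafinil arrays and less so among vehicle arrays. Taken as deviations from the mean of their own region and treatment group, the 21 pairs of member probe sets had Pearson correlations of 0.841 to 0.974 (median 0.941) over 36 arrays. In the 18 modafinil arrays alone the range was 0.857 to 0.987 (median 0.962), and in the 18 vehicle arrays alone it was 0.354 to 0.813 (median 0.554). The points share their arrays, and pairs of probe sets of 1 gene are included. The genes most like each member by the same measure over 36 arrays, out of 12606 genes, were mostly immunity-related GTPases, the other family of interferon-induced GTPases that act on pathogen vacuoles. For Gbp2 they were Iigp1 (0.978), Irgm2 (0.965), Igtp (0.962), Ifi47 (0.960) and AW112010 (0.957). For Gbp3 they were Iigp1 (0.957), Ifi47 (0.954), Igtp (0.950), Cd274 (0.935), which encodes the checkpoint ligand PD-L1, and B2m (0.932), the light chain of MHC class I. For Gbp6 the list held the same 5 genes, led by Iigp1 (0.958), and for Gbp7 it was led by Irgm2 (0.960), followed by Iigp1 (0.934), Ifi47 (0.914), Igtp (0.907) and AW112010 (0.907). Over the 18 vehicle arrays alone the correlation of Iigp1 with Gbp2 was 0.678, and the most alike gene was Fn1 (0.856). The 50th most alike gene to Gbp2 had 0.733 in these vehicle arrays, above Iigp1, and 0.720 over 36 arrays, below it.

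The immunity-related GTPases formed one of the lists of related genes that were counted beside the members. Of 10 on the list 6 had a probe set annotated to them alone and were tested. Across the regions 5 rose: Iigp1 by 2.31 (SE 0.324), Ifi47 by 1.63 (SE 0.225), Igtp by 1.61 (SE 0.207), Irgm2 by 1.61 (SE 0.221) and Irgm1 by 0.90 (SE 0.128), with limma adjusted p from 4.2e-05 to 4.83e-05. Irgq differed by -0.02 (adjusted p = 0.845). Irgm2 was the one called in PFC, at 1.60 (SE 0.269, adjusted p = 0.0327), and none was called in VTA or NAC, where the list's median differences were 1.78 and 1.44 against -0.05 and -0.01 over all 27022. The list's mean level was 7.42 in modafinil VTA array 3, 6.96 in NAC array 4 and 7.77 in PFC array 6, each within the vehicle ranges of 7.35 to 7.61, 6.95 to 7.11 and 7.72 to 8.00, while modafinil VTA arrays 1, 2, 4 and 5 were at 9.09 to 9.43. The arrays that were low for the Gbp genes were thus low for this family.

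Of the other guanylate-binding protein genes, 2 of 7 had a probe set of their own, and both were below the filter. Gbp8 read 3.10 to 3.28 in vehicle VTA arrays and 3.22 to 5.40 in modafinil VTA arrays. For NAC the ranges were 2.85 to 3.35 and 2.99 to 5.28. For PFC they were 3.13 to 3.85 and 3.40 to 6.31. Gbp2b read 3.79 to 5.30 over all groups. With no filter, over 45037 probe sets, the limma adjusted p across the regions was 0.000896 for Gbp8 and 0.507 for Gbp2b; neither was shown to be above background in vehicle arrays, so no size of change is given. The atlastins, distant relatives of the family that shape the endoplasmic reticulum, had 0 of 2 called.

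The genes of the interferon signal upstream of the family had calls among the transcription factors alone, out of the lists of ligands, receptors and kinases, factors and inhibitors. Of 7 interferon ligands 5 were on the array, with a mean level of 4.59 to 5.49 over all groups. In VTA 0 of the 5 passed the level filter. Each of the other treatment comparisons tested 1 ligand, which was not called, so the list was largely untested. The mean level was 4.59 to 4.80 in vehicle and 4.77 to 4.99 in modafinil VTA arrays. The NAC ranges were 4.72 to 4.94 and 4.71 to 5.03, and the PFC ranges 5.15 to 5.36 and 5.25 to 5.49. Ifng, which encodes interferon gamma, was below the filter in all comparisons. Of the 7 interferon receptor and Jak kinase genes 0 were called in any of the 4 treatment comparisons, and their median difference across the regions was -0.01. Among 10 tested transcription factors 4 rose across the regions, where 0.444% of all probe sets did, Irf7 by 0.41 (SE 0.080, limma adjusted p = 0.00411), Irf1 by 0.41 (SE 0.083, adjusted p = 0.00692), Stat2 by 0.25 (SE 0.052, adjusted p = 0.00911) and Irf9 by 0.18 (SE 0.045, adjusted p = 0.0379). Within regions, Stat2 rose in VTA by 0.47 (SE 0.075, adjusted p = 0.0454) and Irf7 in PFC by 0.43 (SE 0.071, adjusted p = 0.0297). Nlrc5, a regulator of MHC class I genes, was below the filter and was not tested; it was chosen after its values were seen. Its values ran from 4.54 to 5.40 in vehicle and 5.43 to 7.38 in modafinil VTA arrays, from 4.91 to 5.25 and 4.69 to 7.23 in NAC and from 4.84 to 5.43 and 5.29 to 7.52 in PFC. The inhibitors of the signal had 0 of 5 called across the regions.

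Genes that work with guanylate-binding proteins in the cell were not called. The ATG conjugation system, which is needed to place the proteins on vacuoles, had 0 of 10 called across the regions, with a median difference of -0.04 against -0.03 over all 27022. The enzymes that attach and trim the lipid anchor had 0 of 5 called (median -0.06), and of the inflammasome list, which the family helps to trigger, 0 of 5 tested were called (median 0.05).

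**Figure D4:**
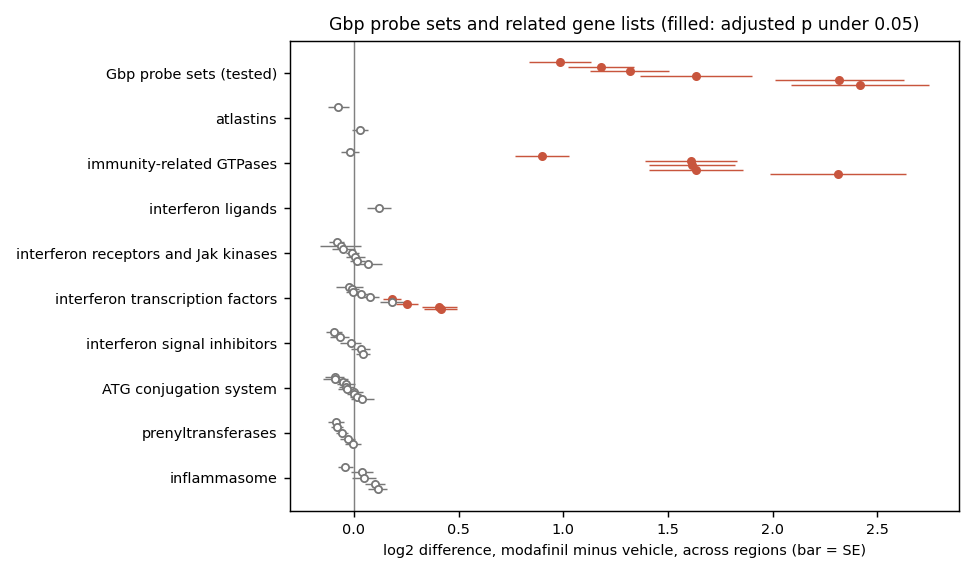
Log2 difference between modafinil and vehicle across the 3 regions (horizontal axis, bars are the SE) for the tested Gbp probe sets and the tested genes of each related list (vertical axis); filled red points passed an adjusted p of 0.05. Apart from the Gbp probe sets, red points are found in the immunity-related GTPases, 0.90 to 2.31, and the interferon transcription factors, 0.18 to 0.41.

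Markers of cells that could carry or bring the signal were counted in the same arrays. Across the regions 0 of 10 microglia markers (median 0.04), 0 of 10 endothelial and mural markers (median 0.00), 0 of 3 monocyte and neutrophil markers (median 0.16) and 0 of 4 tested T and natural killer cell markers (median 0.07) were called. The mean level of the 13 T and natural killer cell markers with a probe set of their own was 5.07 to 5.18 in vehicle and 5.13 to 5.37 in modafinil VTA arrays. For NAC these ranges were 5.24 to 5.44 and 5.22 to 5.56, and for PFC 5.80 to 5.98 and 5.88 to 6.05. Cd3d, Cd3g, Cd8b1, Cd2, Gzma and Gzmb were among the 9 that lay below the filter. Astrocyte markers had 1 of 9 called lower across the regions, Sox9 by -0.25 (SE 0.050, limma adjusted p = 0.00486), and oligodendrocyte markers had 0 of 9 called. Of all 27022 probe sets, 0.396% were called lower across the regions. In VTA 7 of 9 astrocyte and 9 of 9 oligodendrocyte markers had lower values with modafinil, with 0 called in either list. Lower values were common in VTA: the median difference over all 27022 was -0.05. With an unadjusted limma p under 0.05, 3846 were lower and 1849 higher. The mean astrocyte level was 10.09 to 10.44 in vehicle and 9.95 to 10.06 in modafinil VTA arrays, and the oligodendrocyte level was 11.10 to 11.50 and 11.11 to 11.21. In NAC and PFC the ranges of both lists overlapped between treatments. The part of these cells in the Gbp values was not tested.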

How the data were processed

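The authors deposited log2 expression values of 45101 probe sets in 36 arrays, computed with RMA per the submitters' processing notes; its version was not given in the sources used here. Per the labels' protocols, RNA of 2 pieces was pooled where its integrity number was above 7, while PFC RNA was handled apart and was not pooled. No 2 arrays were identical. Arrays were grouped by region and treatment from the labels. The 64 control probe sets were dropped, and probe sets at or above the 40th percentile of the mean over the arrays of a fit were tested, 27022 in each. Fits used limma 3.58.1 (lmFit, then eBayes) under R 4.3.3, with Benjamini and Hochberg adjustment and a threshold of 0.05. They compared treatments within regions and across them, region differences of the change (6 group means), NAC with VTA in vehicle arrays, and spread. Fits were tested on simulated data. Alternatives were quantile normalization, no filter, a 60th percentile filter, trended and robust estimation, 1 fit of all arrays, replicate blocks and leaving out each array.

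Each listed gene was read from its brightest probe set. All member probe sets are named; likeness names the 5 genes with the highest correlation; lists name their called genes or up to 3 by p. Members, lists and rules were chosen with earlier results of these data known. Raw probe intensities and behaviour were not analysed here. Array number limits the precision.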

Additional observations from a re-analysis of the deposited data

Results flagged for a closer look

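Of 42 sets of values (7 probe sets in 6 groups), 9 had an extreme array whose gap to the nearest other, divided by the range of the group, was above the Dixon limit of 0.71 for 5 arrays or 0.526 for 8; chance alone flags about 1 in 20 groups, and the 7 probe sets share their arrays. Modafinil VTA array 3 was the lowest of its group for 6 of the 9. For Gbp2 its gap was 0.9206 of the range by 1418240_at, where it read 5.92 against 9.02 in the next array, and 0.7659 by 1435906_x_at. For Gbp3 the gap was 0.7786, for Gbp6 1447927_at 0.7423 and for Gbp7 0.8301 by 1434380_at and 0.8259 by 1425156_at.

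The other 3 were vehicle arrays that stood high. Vehicle NAC array 3 read 6.46 for Gbp6 1447927_at against 6.08 in the next array, a gap of 0.8727. Vehicle VTA array 3 read 5.79 for Gbp6 1438676_at against 5.38, a gap of 0.7146. Vehicle PFC array 3 read 8.20 for Gbp7 1425156_at against 7.88, a gap of 0.5298.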

How the results depend on the processing

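Member calls in VTA, 0 of 7, became 1 with quantile normalization, 1 with the 60th percentile filter and 5 in 1 fit of all 36 arrays, and ranged from 0 to 7 when each array was left out in turn, 7 without modafinil array 3. In PFC the 3 calls became 0 with the 60th percentile filter, which left both Gbp2 probe sets untested, 0 with trended and robust estimation and 0 with the replicate number as a block; they were 2 with quantile normalization and ranged from 0 to 6 without single arrays. Equal numbers did not pair vehicle with modafinil arrays: same-numbered vehicle and modafinil arrays had correlations of their deviations from -0.176 to 0.199 (VTA), -0.518 to 0.156 (NAC) and -0.221 to 0.264 (PFC), so the replicate block shares only a number. Between regions the same-numbered correlations ran from 0.016 to 0.249 for vehicle VTA and NAC arrays, where 4 of 5 were highest with their own number, a hint from the data and not the design, and from -0.119 to 0.321 over the other pairs of regions and treatments. Across the regions the 6 calls became 3, all that were tested, with the 60th percentile filter and stayed 6 without each array; both replicate block fits across the regions gave 6. In NAC they were 0 under all settings and array omissions run. The level difference between NAC and VTA had 3 calls and 5 with no filter. Member calls of the spread comparison in NAC ranged from 0 to 5 without single arrays, where calls over all probe sets ranged from 0 to 635. Over all probe sets, the counts of 70 in VTA became 294 with quantile normalization, 0 with no filter, 291 with the 60th percentile filter, 241 with trended and robust estimation, 940 in 1 fit and 0 with the block (0 to 172 without single arrays); the 14 in PFC became 4, 0, 36 and 0 with the filter, robust estimation, 1 fit and block (0 to 62); the 227 across regions became 140 with the 60th percentile filter and 118 with the random block (145 to 389). Called differences of single members kept their sign under every setting run. Quantile normalization moved the median of all genes by 0.217 and 0.23 in VTA, 0.17 and 0.174 in NAC and -0.249 and -0.244 in PFC (vehicle and modafinil), about equally for both treatments. The cause of these shifts in counts was not tested.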
